A study of Mus musculus with 18 samples.

Results

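The 49 genes described here encode the Wnt ligands, their receptors and the proteins that carry the Wnt signal through the cell, and they were chosen by name. All 49 were found, with 1 identifier each, among the 43432 gene identifiers of 2 count tables. RNA was sequenced from sorted mouse intestinal stem cells, which divide in the crypts of the gut. The study has 4 Dlg1 conditional knock-out and 4 wild-type libraries at 2 days (48 hours) after tamoxifen, and 5 Dlg1 conditional knock-out and 5 wild-type libraries at 14 days. Tamoxifen, the drug that switches on an inducible recombinase, was given to every mouse, wild type included, and the mice were 8 to 16 weeks old. Each library came from 5000 to 10000 sorted cells, which can hold more than 1 epithelial cell type. The recombinase, the altered Dlg1 allele, the sorting marker and the number of mice behind a library are not stated in the labels. The p-values therefore measure only the spread between these libraries, which may be technical. Dlg1 encodes a scaffold protein of the cell's polarity machinery, and the series asks which genes differ when it is lost.

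In the Wnt pathway a secreted ligand binds a Frizzled receptor together with an LRP co-receptor at the cell surface. Without a ligand, a destruction complex built on Axin1 and Apc, with the kinases Gsk3 and casein kinase 1, marks beta-catenin for breakdown. With a ligand, Dishevelled proteins inhibit that complex, and beta-catenin enters the nucleus, where it joins TCF/LEF factors and turns on target genes. Intestinal stem cells depend on this signal, and R-spondins, which act through the Lgr receptors, strengthen it. Apc is the tumour suppressor most often lost in colorectal cancer.

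Libraries held 14816933 to 40544439 counts at 2 days and 11133674 to 15706057 at 14 days. Mitochondrially encoded genes took 26.1% to 49.1% of the counts at 2 days and 6.21% to 26.3% at 14 days. Wild-type library 1 at 2 days stood apart, with the largest total and mitochondrial share. It was the lowest library for 17 and the highest for 11 of the 39 members tested at that time (43.6% and 28.2%), against 31.4% and 29.3% of all genes tested. Knock-out library 1 at 14 days was the lowest for 17 of 42 members (40.5%), against 15.9% of all genes tested. The targeted gene itself checked the labels only in part, since its counts cover the whole gene: Dlg1 averaged 45.7 ± 8.49 CPM (counts scaled to the size of the library) in knock-out and 59.4 ± 9.18 CPM in the wild type at 2 days (SD over 4 libraries each; p = 0.0857 by a two-sided exact permutation test). At 14 days it averaged 64.3 ± 23.8 CPM in the knock-out and 72.0 ± 11.95 CPM in the wild type (SD over 5 libraries each; exact permutation p = 0.389). The highest library of that time was a knock-out one, at 100.8 CPM, against at most 85.8 CPM in the wild type. The 14 day log2 fold change of Dlg1 ran from -0.40 without knock-out library 5 to -0.058 without knock-out library 3. At 2 days the groups overlapped too, at 38.4 to 57.97 CPM in the knock-out and 48.3 to 69.5 CPM in the wild type. The Dlg1 counts thus do not separate the genotypes at either time. The columns also carry codes of unstated meaning. At 2 days they begin with 64 in 3 knock-out and 1 wild-type library, with 51 in 1 of each, and with 45 in wild-type libraries 1 and 2 alone. At 14 days they begin with B in 2 and with J in 3 libraries of each genotype. All 10 markers of intestinal stem cells and all 7 of epithelium on the lists used were detected in every group. Their summed stem cell level was 4596 to 5335 CPM in the knock-out and 5379 to 5920 CPM in the wild type at 2 days, without overlap. Most of this sum came from Olfm4 (means of 2432 CPM in the knock-out and 2953 CPM in the wild type) and Slc12a2 (1289 and 1557 CPM). Smoc2 was level, at 211 and 210 CPM, and Rgmb was higher in the knock-out, at 64.9 and 55.2 CPM. The 14 day sums were 2289 to 3252 CPM in the knock-out and 2545 to 3502 CPM in the wild type.

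The members ranged from no count at all to the high level of Ctnnb1. A level per kilobase (kb) of merged exons is used wherever genes are compared with each other, since longer genes collect more reads. At 2 days 33 members, and at 14 days 31, had a mean of at least 1 CPM per kb in 1 or both genotypes. Another 10 at 2 days and 5 at 14 days stayed under 0.1 CPM per kb in both genotypes. Ctnnb1, which encodes beta-catenin, had the highest level per kb of all members in every group. It reached 67.8 to 76.6 CPM per kb in knock-out and 75.8 to 106 CPM per kb in the wild type at 2 days. At 14 days it reached 72.4 to 98.5 CPM per kb in knock-out and 80.2 to 101 CPM per kb in the wild type. In each library it was above every other member. Next in order at 2 days stood Gsk3b, Fzd5, Lgr4 and Csnk1d, whose ranges overlapped in both genotypes. At 14 days Csnk1a1 came second, at 31.9 to 42.1 CPM per kb in knock-out and 31.5 to 41.7 CPM per kb in the wild type.

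**Figure D1:**
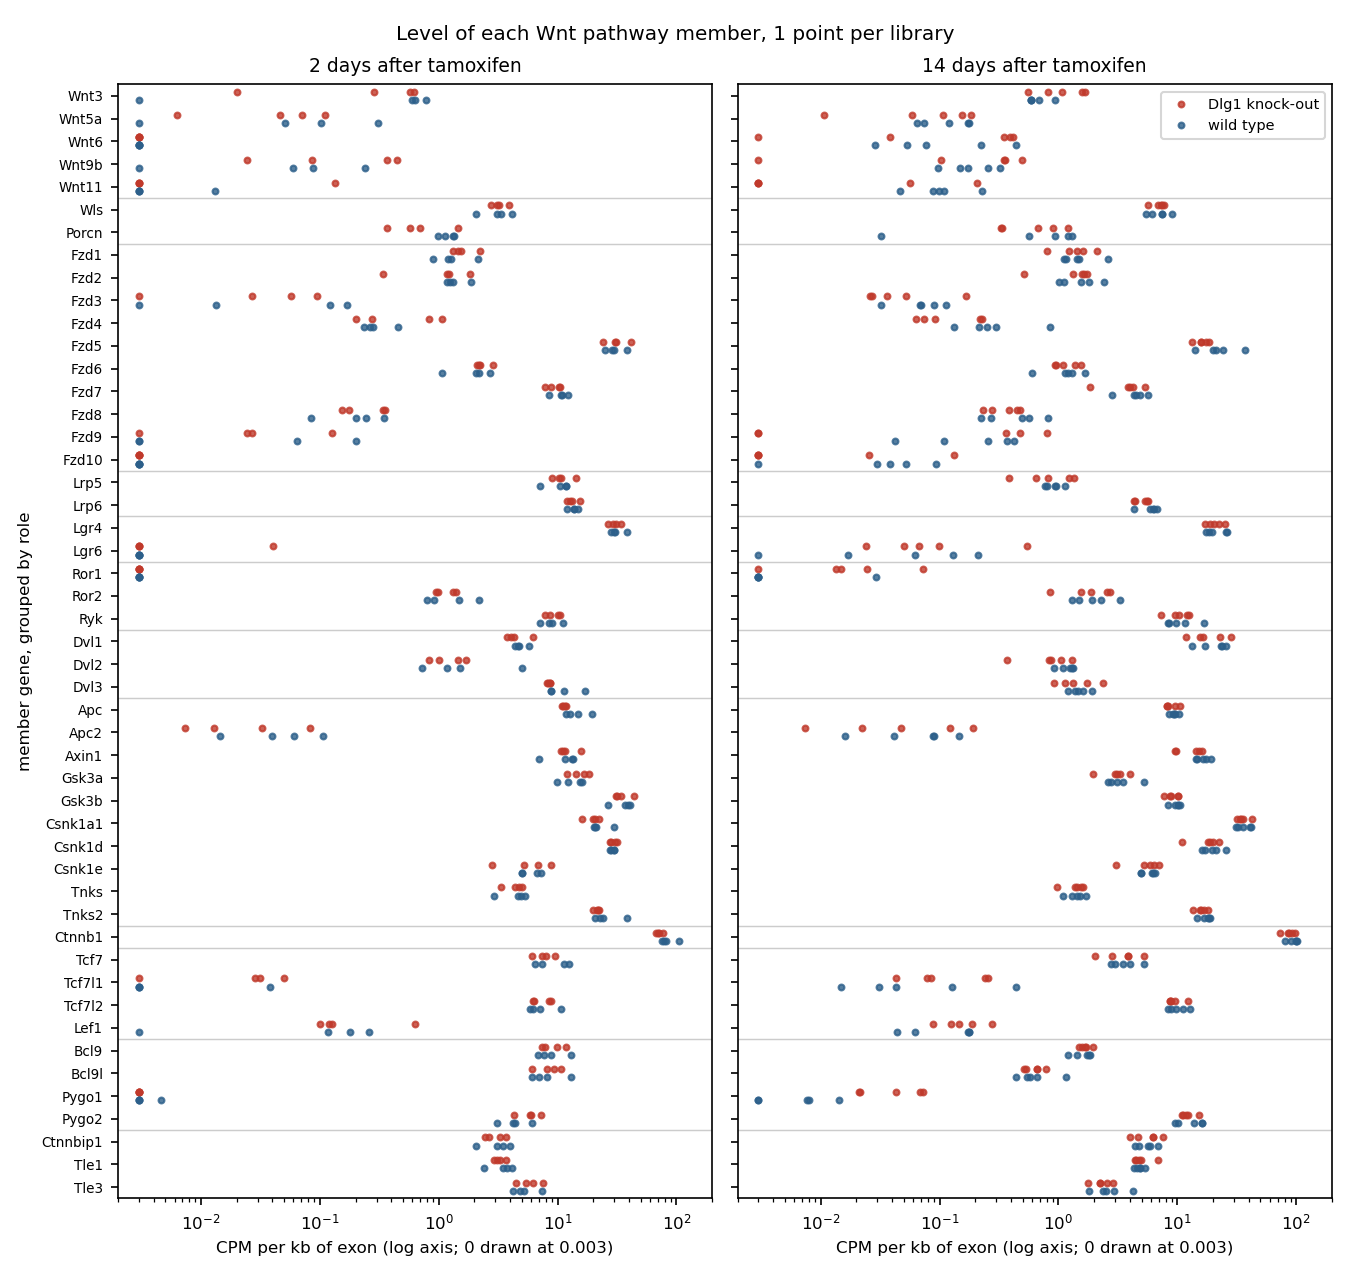
Level of the 49 members in each library, in CPM per kb of merged exons on a log axis, with 1 point per library, knock-out above wild type within each gene and a value of 0 drawn at 0.003. Ctnnb1 stands farthest to the right at both times, and most Wnt ligands, Fzd3, Fzd9, Fzd10, Apc2, Tcf7l1, Lgr6, Pygo1 and Ror1 lie at the left edge.

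The Wnt ligands were close to the limit of detection. Wnt3, a ligand that Paneth cells are known to make for their neighbouring stem cells, had 1.91, 1.78, 0.885 and 0.0614 CPM in knock-out libraries 1 to 4 at 2 days, against 0, 2.43, 1.96 and 1.83 CPM in libraries 1 to 4 of the wild type. The 14 day values were 5.16, 1.70, 3.31, 2.53 and 4.85 CPM in knock-out libraries 1 to 5, against 1.82, 1.82, 1.82, 2.86 and 2.13 CPM in libraries 1 to 5 of the wild type. The groups overlapped at both times, and no library passed 64 counts. Wnt5a, a ligand of the branch that works without beta-catenin, held at most 45 counts in a library, and Wnt9b at most 34. Wnt6 had no count in any library at 2 days, where a count of 0 allows up to 0.0835 to 0.184 CPM, the worth of 3 counts in each library. At 14 days Wnt6 held 0, 10, 11, 1 and 6 counts in knock-out and 8, 2, 10, 3 and 1 counts in the wild type.

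Wnt11 had at most 15 counts in any library. Its promoter was the only member promoter that holds the letters CTTTGAT or their reverse complement ATCAAAG, 1 spelling of the TCF/LEF motif. It is printed for that reason, and other spellings of the motif were not searched. Promoters of 300 bases, 250 before to 50 after the gene's start, were given by RefSeq on GRCm38.p6 for 35 of the 49 members, 51 promoters in all. This spelling was in 1 of these 51 (1.96%) and in 3.73% of all 32851 promoters of that length, searched on both strands. In Wnt11 it starts 51 bases before the gene's start. The sequence is chr7:98834862-98835161, plus strand, 5′ to 3′, with the motif in capitals.
Wnt11: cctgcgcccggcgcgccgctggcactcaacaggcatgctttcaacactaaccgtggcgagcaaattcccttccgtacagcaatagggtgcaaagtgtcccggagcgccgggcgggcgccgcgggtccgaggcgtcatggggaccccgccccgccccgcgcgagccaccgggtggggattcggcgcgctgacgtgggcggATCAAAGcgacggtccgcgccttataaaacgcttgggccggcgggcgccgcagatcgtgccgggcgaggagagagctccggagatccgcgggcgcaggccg

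Of the ligand secretion genes, Wls was well measured and Porcn was as low as the ligands in some libraries. Wls encodes the protein that carries Wnt ligands to the cell surface, and Porcn the enzyme that attaches their lipid. Wls averaged 28.4 ± 4.23 CPM in the knock-out and 27.8 ± 7.57 CPM in the wild type at 2 days (SD, n = 4 each). Its mean at 14 days was 61.7 ± 7.35 CPM in the knock-out and 62.5 ± 12.3 CPM in the wild type (SD, n = 5 each). Porcn was lower, with 1.71, 4.40, 2.10 and 1.11 CPM in knock-out libraries 1 to 4 at 2 days, against 4.02, 3.96, 2.94 and 3.40 CPM in libraries 1 to 4 of the wild type. These groups overlapped through knock-out library 2 alone, the highest of the 8. At 14 days Porcn spread widely, at 3.61, 2.004, 0.993, 1.01 and 2.71 CPM in the knock-out and 2.79, 3.58, 0.0959, 1.68 and 3.88 CPM in the wild type.

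Among the 10 Frizzled receptors, which bind Wnt ligands, Fzd5 carried most of the summed level per kb and Fzd7 most of the rest. The Fzd5 share had a median of 68.01% (59.04% to 72.01%) over the knock-out and 62.3% (60.6% to 75.3%) over the wild-type libraries at 2 days, with the range in brackets. At 14 days it was 64.6% (60.01% to 74.5%) in knock-out and 71.3% (58.3% to 78.7%) in wild-type libraries. Fzd7, which is known in mice as a receptor of intestinal stem cells, held 20.1% (15.3% to 25.9%) in knock-out and 24.2% (16.9% to 26.4%) in wild-type libraries at 2 days. Its share at 14 days was 15.9% (8.76% to 18.9%) in knock-out and 13.2% (10.3% to 17.95%) in wild-type libraries. Fzd6, Fzd1 and Fzd2 had means between 1.14 and 2.34 CPM per kb in every group, and Fzd3, Fzd4, Fzd8, Fzd9 and Fzd10 had means under 1. The promoters of the 2 leading receptors are printed because both are rich in CG pairs, shown in capitals. Fzd5 (chr1:64737701-64738000, minus strand) has 38 CG pairs in 300 bases and Fzd7 (chr1:59481897-59482196, plus strand) has 24, against a median of 24 over the 51 member promoters and of 7 over all promoters (RefSeq, GRCm38.p6, 5′ to 3′).
Fzd5: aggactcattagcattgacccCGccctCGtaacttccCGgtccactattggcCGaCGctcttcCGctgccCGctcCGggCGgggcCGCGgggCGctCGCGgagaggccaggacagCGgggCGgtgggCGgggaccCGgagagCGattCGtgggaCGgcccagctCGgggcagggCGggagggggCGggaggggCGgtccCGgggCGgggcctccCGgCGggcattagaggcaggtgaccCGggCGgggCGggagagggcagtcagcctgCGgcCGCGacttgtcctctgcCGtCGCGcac
Fzd7: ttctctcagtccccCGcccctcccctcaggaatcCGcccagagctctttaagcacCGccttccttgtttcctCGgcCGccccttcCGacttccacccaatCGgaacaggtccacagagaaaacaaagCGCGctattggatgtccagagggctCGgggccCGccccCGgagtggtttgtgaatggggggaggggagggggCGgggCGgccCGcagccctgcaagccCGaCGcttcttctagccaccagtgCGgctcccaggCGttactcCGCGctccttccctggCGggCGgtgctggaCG

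Both LRP co-receptors were present. At 2 days Lrp6 made up 54.5% (51.9% to 58.7%) of the pair in knock-out and 54.98% (53.2% to 65.8%) in wild-type libraries, and at 14 days 86.8% (76.5% to 93.7%) in knock-out and 86.02% (84.4% to 88.9%) in wild-type libraries. Lgr4, an R-spondin receptor, had 183, 155, 173 and 202 CPM in the knock-out and 224, 165, 177 and 180.2 CPM in the wild type at 2 days. Its relative Lgr6 had 5 counts in knock-out library 3 and was at 0 in the rest. The receptor Ryk averaged 9.23 CPM per kb in knock-out and 8.93 in wild-type libraries at 2 days, and Ror2 averaged 1.16 CPM per kb in knock-out and 1.35 in wild-type libraries. Both are known for the branch of the pathway that works without beta-catenin. Ror1, the relative of Ror2, had no count at 2 days and at most 5 at 14 days.

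Dishevelled proteins relay the signal from the receptors to the destruction complex. Dvl3 led the family at 2 days and Dvl1 at 14 days, in every library of both genotypes. The Dvl3 share of the family's level per kb was 60.8% (52.8% to 62.9%) in knock-out and 62.2% (60.04% to 63.5%) in wild-type libraries at 2 days. At 14 days it was 8.20% (4.40% to 9.91%) in knock-out and 6.15% (4.88% to 9.63%) in wild-type libraries. The Dvl3 promoter (chr16:20516736-20517035, plus strand, RefSeq, GRCm38.p6) has 30 CG pairs in capitals and neither CTTTGAT nor ATCAAAG. It is shown because Dvl3 led the family at 2 days and had one of the smallest genotype p-values then.
Dvl3: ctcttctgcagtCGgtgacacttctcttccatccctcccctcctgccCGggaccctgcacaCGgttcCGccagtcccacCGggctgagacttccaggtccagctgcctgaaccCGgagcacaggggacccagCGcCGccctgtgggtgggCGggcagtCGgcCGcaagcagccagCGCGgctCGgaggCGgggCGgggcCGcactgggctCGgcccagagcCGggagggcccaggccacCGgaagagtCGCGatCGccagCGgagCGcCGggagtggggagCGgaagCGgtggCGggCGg

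**Figure D2:**
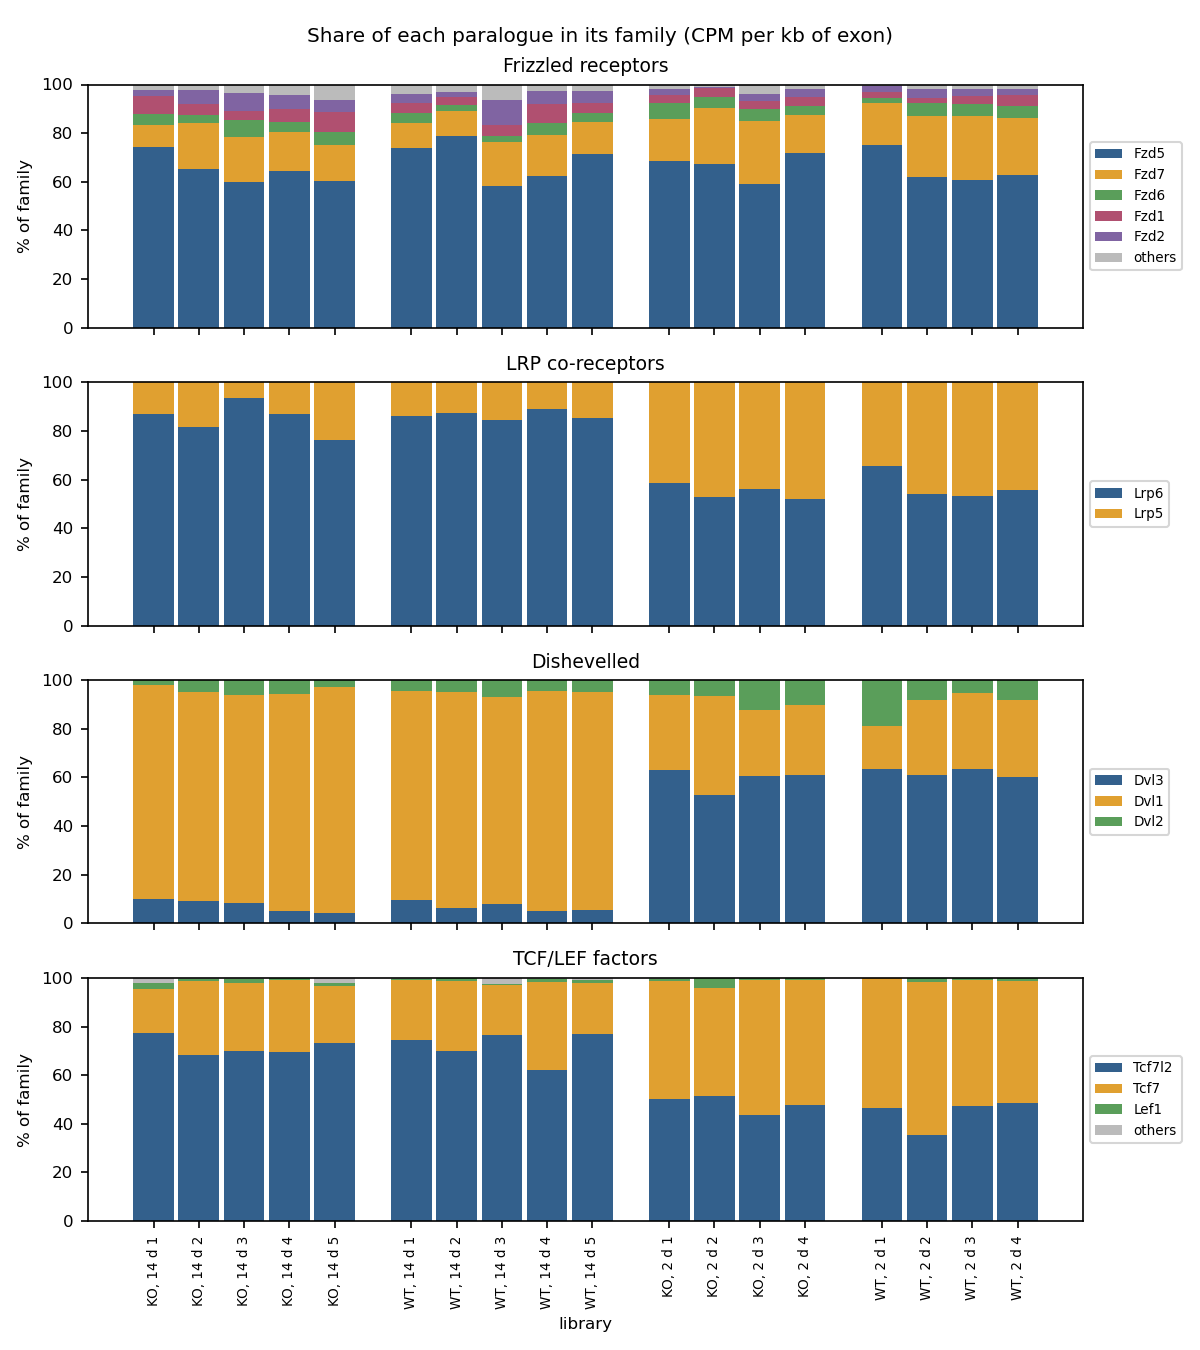
Share of each paralogue in the summed CPM per kb of its family, with 1 stacked bar per library (14 days left, 2 days right, knock-out left of wild type within each time). The bars of knock-out and wild type are alike in pattern, with Fzd5 at 58.3% or more in every library, while Dvl3 and Dvl1 change places between the times.

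In the destruction complex Apc was nearly the only form of its pair, at 97.8% or more of the summed level of Apc and Apc2 in each library. Tnks2, a tankyrase, which marks Axin for breakdown, held at least 79.3% of the tankyrase pair, and Gsk3b at least 64.9% of the Gsk3 pair. Of the nuclear factors, Tcf7l2 and Tcf7 together carried nearly all of the TCF/LEF level. Tcf7 held 49.998% (44.7% to 55.5%) in knock-out and 52.6% (50.3% to 63.1%) in wild-type libraries at 2 days, and Tcf7l2 70.1% (68.4% to 77.4%) in knock-out and 74.5% (62.2% to 77.1%) in wild-type libraries at 14 days. Lef1, which is known to mark active Wnt signalling in many tissues, stayed at 3.84% of the family or less, and Tcf7l1 at 2.62% or less. Pygo2, a co-activator that binds beta-catenin through Bcl9, made up at least 99.4% of the Pygopus pair.

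Knock-out against wild type at 2 days addressed whether these genes differ between the genotypes 48 hours after tamoxifen. No member passed the test. Apc and Dvl3 had the smallest p-values, and the highest knock-out library of each stood below the lowest wild-type library, at a fitted 76.8% of wild type for Apc and 73.5% for Dvl3. Ctnnb1 itself averaged 370.5 ± 19.8 CPM in the knock-out and 444 ± 71.5 CPM in the wild type (SD, n = 4 each). Of the 39 members with enough counts to test, 0 were called at an adjusted p under 0.05 by edgeR's quasi-likelihood test, and likewise 0 by DESeq2 and by limma voom. The background was the same, with 0 of 13031 genes called (0%) by edgeR. At an unadjusted p under 0.05 the count was 1 of 39, Apc, against 4.91% of all genes.

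Apc, the scaffold of the destruction complex, had 187.9, 179.0, 176.4 and 185.3 CPM in knock-out libraries 1 to 4, against 315.6, 206.5, 188.2 and 238.2 CPM in libraries 1 to 4 of the wild type. The knock-out libraries lay within a narrow band just under the lowest wild-type library, and wild-type library 1 was far above the rest. The log2 fold change was -0.38 (SE 0.17, 95% interval -0.76 to -0.0024; adjusted p = 0.866 by edgeR). It was -0.22 without wild-type library 1. Dvl3 showed the same arrangement, with 55.4, 51.9, 53.6 and 55.4 CPM in the knock-out and 109, 73.1, 56.3 and 55.95 CPM in the wild type. Its log2 fold change was -0.44 (SE 0.21, 95% interval -0.91 to 0.02), and -0.20 without wild-type library 1 (adjusted p = 0.866 by edgeR with all libraries). Groups that do not overlap give a two-sided exact permutation p of 0.0286, the smallest that the 70 assignments of 4 against 4 libraries allow. Such separation was seen for 2 of 39 members (5.13%), against 3.98% of all genes tested. Counting only genes lower in the knock-out, the background was 1.94%. The summed stem cell markers, mostly Olfm4 and Slc12a2, were lower in the knock-out libraries without overlap too. Of the 10 markers 8 had a negative and 2 a positive fold change, and 0 had an unadjusted p under 0.05. The part of these markers in the values of Apc and Dvl3 was not tested. Enterocyte markers went the other way, with positive fold changes for all 8, where 49% of all genes tested were negative. An unadjusted p under 0.05 was found for 6 of the 8, against 4.91% of all genes. Their sums were 551 to 3089 CPM in the knock-out and 520.3 to 858 CPM in the wild type. Positive fold changes were also found for 7 of 7 goblet, 6 of 7 epithelial and 5 of 6 tuft markers. They were found for 4 of 8 Paneth and 3 of 7 enteroendocrine markers. In such bulk samples fewer cells of a type and less RNA per cell cannot be told apart.

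Ctnnb1 had 398, 352, 360.4 and 372 CPM in knock-out libraries 1 to 4, against 549, 394, 422 and 409 CPM in libraries 1 to 4 of the wild type, and the groups overlapped by 1 library on each side. The log2 fold change was -0.26 (SE 0.16, 95% interval -0.60 to 0.08), or -0.15 without wild-type library 1. Of its exon bases 782 overlap other annotated genes, among them Ulk4 on the opposite strand, and the strand setting of the counting is not given in the sources used here. Tnks2 had 226, 234, 208 and 224 CPM in the knock-out and 401, 214, 251 and 235 CPM in the wild type, with wild-type library 1 the highest of the 8. Its log2 fold change was -0.30 ± 0.20 (SE), and -0.07 without that library. Csnk1a1, the casein kinase that starts the marking of beta-catenin for breakdown, had 219, 169, 207 and 236 CPM in the knock-out and 314, 213, 215 and 220.2 CPM in the wild type, a log2 fold change of -0.21 ± 0.18 (SE). Without wild-type library 1 it was -0.06. The same wild-type library was thus highest for Apc, Dvl3, Ctnnb1, Tnks2 and Csnk1a1.

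Dvl2 had 5.18, 6.29, 10.7 and 9.09 CPM in knock-out libraries, against 31.7, 9.56, 4.55 and 7.34 CPM in the wild type. Here wild-type library 1 set the direction: the log2 fold change was -0.77 ± 0.53 (SE) with it and 0.12 without it. Dvl2 shares 1240 bases of exon with other annotated genes, among them Acadvl on the opposite strand. Tcf7, a factor that binds DNA with beta-catenin, had 15.9, 19.3, 20.95 and 24.8 CPM in the knock-out and 32.4, 29.5, 16.9 and 19.4 CPM in the wild type, a log2 fold change of -0.28 ± 0.26 (SE). Without wild-type library 1 it was -0.12. Pygo2 leaned the other way, with 15.5, 21.2, 21.5 and 26.3 CPM in the knock-out and 11.3, 15.4, 22.3 and 15.9 CPM in the wild type. The Pygo2 groups overlapped, and the log2 fold change was 0.38 (SE 0.26, 95% interval -0.18 to 0.94), or 0.23 without wild-type library 1. Fzd4, a Frizzled receptor of low level here, had 1.86, 1.36, 7.19 and 5.59 CPM in the knock-out and 1.59, 1.78, 1.90 and 3.08 CPM in the wild type. Knock-out libraries 3 and 4 stood above all others and knock-out library 2 was the lowest of the 8, for a log2 fold change of 0.93 ± 0.60 (SE). Leaving out knock-out library 3 gave 0.47, and leaving out knock-out library 2 gave 1.22. Porcn, given above, had a log2 fold change of -0.61 ± 0.51 (SE). For Porcn the value was -1.12 when library 2 of the knock-out was left out and -0.38 when library 4 was. A fit with the start of the column code as a block was chosen after seeing the data. Code 45 has no knock-out library, so wild-type libraries 1 and 2 do not inform its 2 day genotype estimate. In that fit the 2 day log2 fold changes were -0.24 for Apc, -0.047 for Dvl3 and 0.22 for Dvl2. They were 0.062 for Tcf7, 0.093 for Pygo2 and 0.35 for Fzd4, and none of these genes was called by edgeR.

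Other core members at 2 days were nearly level between the genotypes. Fzd5 had 213, 211, 165 and 289 CPM in the knock-out and 263, 208, 172 and 198 CPM in the wild type, a log2 fold change with a 95% interval of -0.36 to 0.49. Gsk3b, the kinase that phosphorylates beta-catenin in the complex, had 303, 311, 337 and 433 CPM in the knock-out and 260.2, 386, 360.3 and 397 CPM in the wild type, with an interval of -0.42 to 0.38. Neither gene separated the genotypes. Lrp6 had 175, 165, 179.5 and 211 CPM in the knock-out and 187, 189, 163 and 202 CPM in the wild type, with an interval of -0.34 to 0.29. Tcf7l2, a TCF factor known to be needed in the gut epithelium, had 55.2, 74.2, 55.01 and 76.6 CPM in the knock-out and 94.2, 55.01, 51.6 and 62.5 CPM in the wild type, with an interval of -0.48 to 0.46. Axin1, a scaffold of the destruction complex, had 41.3, 42.3, 43.9 and 59.9 CPM in the knock-out and 26.7, 50.9, 51.9 and 44.2 CPM in the wild type, with an interval of -0.39 to 0.61. Wild-type library 1 was the highest of the 8 for Tcf7l2 and the lowest for Axin1, and knock-out library 4 was the highest for Axin1 and Lrp6. Fzd7 had 35.3, 46.9, 47.5 and 40.2 CPM in the knock-out and 38.7, 55.2, 49.1 and 48.4 CPM in the wild type, with an interval of -0.56 to 0.22. Wls had 34.2, 24.2, 27.04 and 28.1 CPM in the knock-out and 18.1, 29.4, 36.4 and 27.4 CPM in the wild type, with an interval of -0.48 to 0.54. The intervals were -0.32 to 0.54 for Lrp5 and -0.40 to 0.27 for Lgr4. The farthest bound among these 9 genes was 0.61 on the log2 scale, so each interval excluded a 2-fold change in either direction. Lef1 and Wnt3 were too low for such a limit, with intervals of -1.43 to 3.10 for Lef1 and -2.80 to 1.998 for Wnt3. Lef1 had 0.879, 5.57, 1.11 and 1.04 CPM in the knock-out and 0, 2.28, 1.04 and 1.56 CPM in the wild type, and knock-out library 2 alone stood above the rest.

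**Figure D3:**
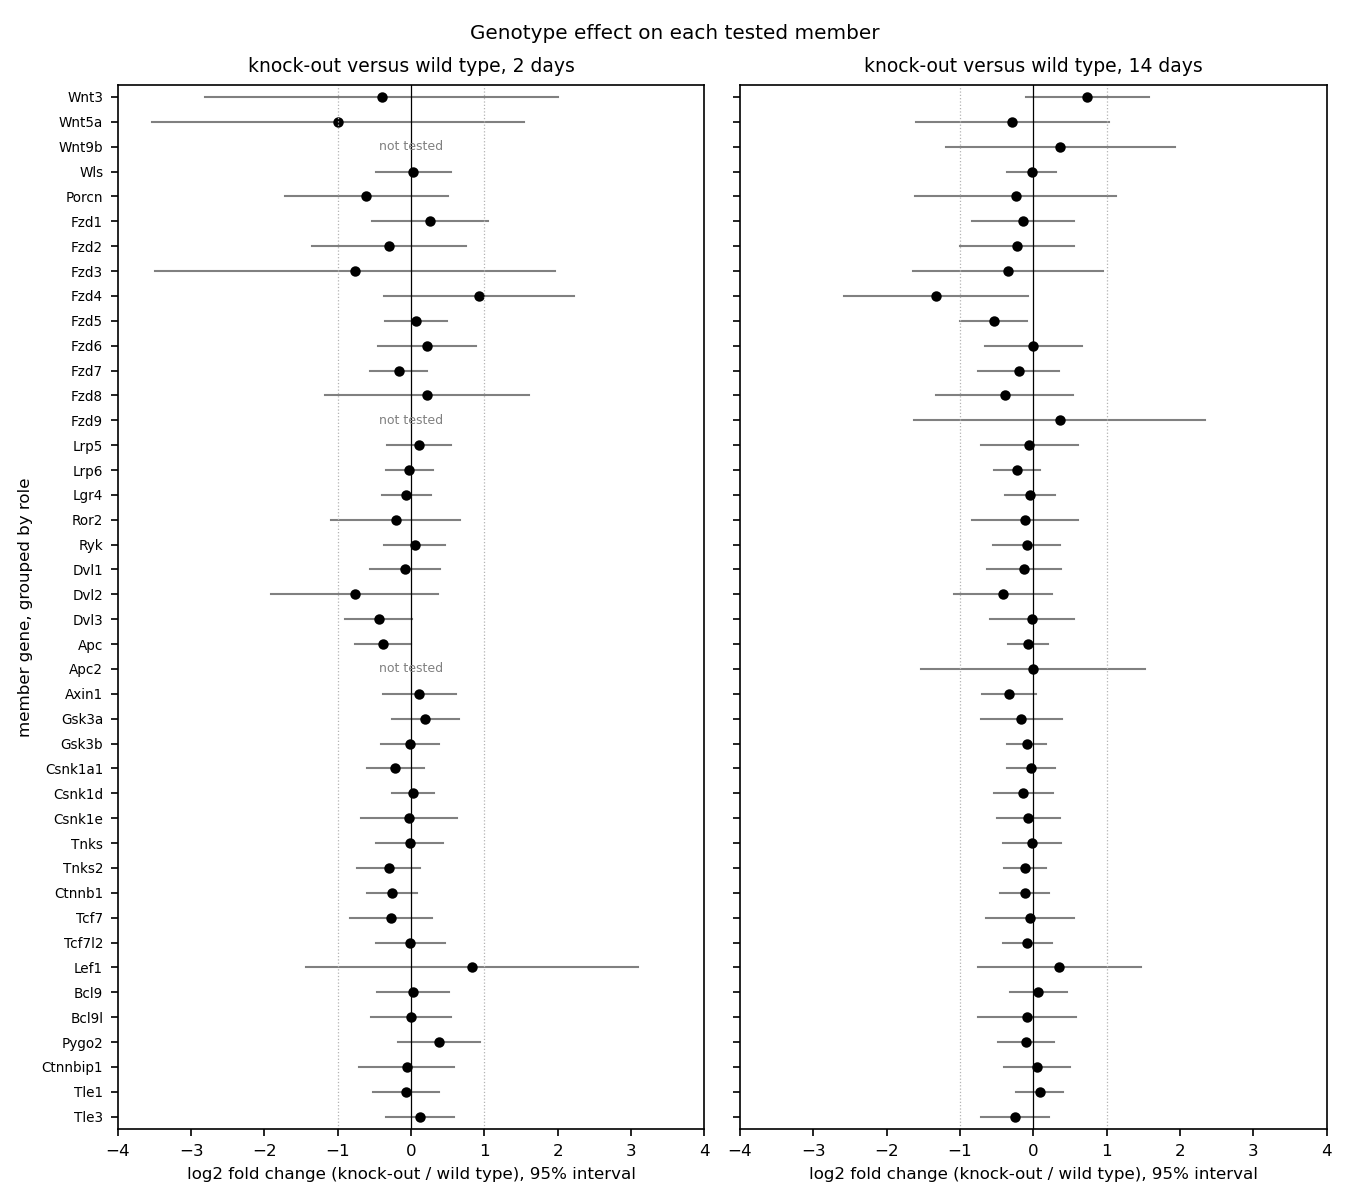
Log2 fold change of knock-out over wild type for each tested member at 2 days (left) and 14 days (right), ordered by role, with points for the edgeR estimate, bars for its 95% interval and dotted lines at a 2-fold change. The intervals of 38 of 39 members at 2 days and 40 of 42 at 14 days include 0, Apc (2 days), Fzd4 and Fzd5 (14 days) being the exceptions.

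Taking all 39 tested members at 2 days, 24 had a negative log2 fold change (61.5%), against 49% of all genes tested, and their median was -0.02, against 0.01 over all genes. The number of negative members ran from 19 to 28 when single libraries were left out. For 28 members the 95% interval lay within a 2-fold change in both directions, and this held for 28 of the 29 members with an average log2 CPM of at least 3. The members not yet named were close to level or low: log2 fold changes of Csnk1d, Csnk1e, Tnks, Gsk3a, Dvl1, Bcl9, Bcl9l, Ctnnbip1, Tle1, Ryk and Ror2 lay between -0.21 and 0.19, and those of Fzd1, Fzd2, Fzd3, Fzd6 and Fzd8 between -0.77 and 0.25. Wnt5a had the most negative value, -0.99 (SE 1.17, 95% interval -3.53 to 1.55), from at most 45 counts. The remaining 10 members (Apc2, Tcf7l1, Pygo1, Fzd9, Fzd10, Lgr6, Wnt6, Wnt9b, Wnt11 and Ror1) were too low to test.

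**Figure D4:**
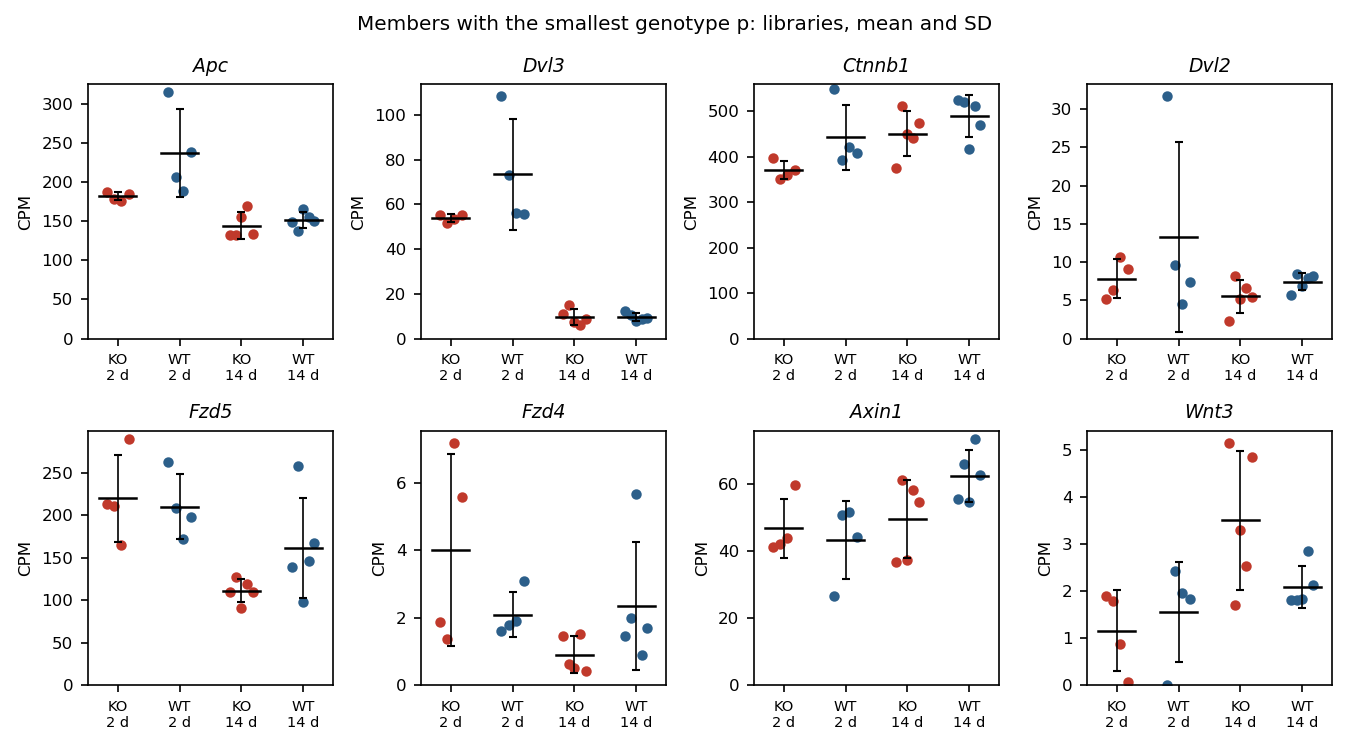
CPM of 8 members with small genotype p-values at 1 or both times, with 1 point per library, a bar for the mean and whiskers for the SD, knock-out (KO) left of wild type (WT) at 2 and 14 days, on linear axes that start at 0. Apc and Dvl3 do not overlap at 2 days, Fzd5 is at most 127 CPM in knock-out libraries at 14 days, and wild-type library 1 at 2 days is the high point of Apc, Dvl3, Ctnnb1 and Dvl2.

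The same comparison at 14 days addressed the later state. Again no member passed the test. Fzd5, the main Frizzled receptor of these cells, averaged 111 ± 13.4 CPM in the knock-out and 162 ± 59.3 CPM in the wild type, and Fzd4 averaged 0.904 ± 0.539 CPM in the knock-out and 2.34 ± 1.90 CPM in the wild type (SD, n = 5 each). The smallest adjusted p of a member was 0.957 by edgeR. Of 42 tested members 0 were called by edgeR, 0 by DESeq2 and 0 by limma voom, against 0 of 13991 genes (0%) by edgeR. At an unadjusted p under 0.05 there were 2 of 42, Fzd5 and Fzd4, both lower in the knock-out, against 3.99% of all genes.

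Fzd5 had 109, 127, 91.3, 119 and 109 CPM in knock-out libraries 1 to 5, against 139, 258, 97.95, 146 and 167 CPM in libraries 1 to 5 of the wild type. All knock-out libraries lay in a narrow range, wild-type library 3 fell inside it, and wild-type library 2 was far above the other 4 of its group. The log2 fold change was -0.54 (SE 0.21, 95% interval -0.997 to -0.08; adjusted p = 0.957 by edgeR). It was -0.31 without wild-type library 2 and -0.68 without wild-type library 3, where the adjusted p was 0.193, the smallest of any setting at this time. Of its exon bases 1233 are shared with Gm38058 on the opposite strand. Fzd4 had 1.46, 0.617, 0.497, 1.52 and 0.428 CPM in the knock-out and 1.45, 1.99, 5.66, 0.897 and 1.69 CPM in the wild type, from 3 to 18 counts in knock-out and 16 to 59 counts in wild-type libraries. Wild-type library 3 was far above the others, and the log2 fold change of -1.33 ± 0.58 (SE) was -0.72 without it. Fzd7 had 8.42, 24.1, 18.3, 19.3 and 17.4 CPM in the knock-out and 12.8, 22.003, 19.8, 25.5 and 20.2 CPM in the wild type, a log2 fold change of -0.20 ± 0.26 (SE) that was -0.02 without knock-out library 1. Fzd8, a Frizzled receptor near the limit of detection, had 1.37, 2.70, 1.66, 2.27 and 2.85 CPM in the knock-out and 1.33, 4.93, 3.36, 1.63 and 2.94 CPM in the wild type.

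Axin1 had 36.7, 61.4, 37.4, 58.2 and 54.6 CPM in knock-out libraries 1 to 5, against 55.6, 66.2, 54.9, 73.7 and 62.9 CPM in libraries 1 to 5 of the wild type. Knock-out libraries 1, 3 and 5 lay under every wild-type library, library 5 only just, while the other 2 fell inside the wild-type range. The log2 fold change was -0.34 (SE 0.17, 95% interval -0.71 to 0.04; adjusted p = 0.957 by edgeR). Lrp6, the main LRP co-receptor at this time, had 58.7, 75.6, 77.4, 72.9 and 60.5 CPM in the knock-out and 80.1, 86.3, 59.2, 85.03 and 91.4 CPM in the wild type. Wild-type library 3 was the second lowest of the 10, and the log2 fold change was -0.22 ± 0.15 (SE). Dvl2 had 2.32, 8.17, 5.21, 6.65 and 5.42 CPM in the knock-out and 5.76, 8.39, 6.91, 7.90 and 8.14 CPM in the wild type, with knock-out library 1 the lowest. Its log2 fold change was -0.42 ± 0.31 (SE), and -0.22 without that library. Tle3, a co-repressor that binds TCF factors, had 20.7, 29.8, 26.1, 33.6 and 26.2 CPM in the knock-out and 21.1, 49.6, 34.3, 27.9 and 29.6 CPM in the wild type, a log2 fold change of -0.25 ± 0.22 (SE) that was -0.05 without wild-type library 2 and -0.37 without wild-type library 1. Tnks2 had 175, 166, 142, 161 and 189 CPM in the knock-out and 196, 175, 152, 192 and 189 CPM in the wild type, with a 95% interval of -0.41 to 0.17.

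Wnt3, whose values stand above, was the tested member with the most positive log2 fold change at 14 days, 0.74 (SE 0.39, 95% interval -0.11 to 1.58), from 22 to 60 counts in knock-out and 19 to 51 counts in the wild type. Knock-out libraries 1, 3 and 5 lay above every wild-type library and knock-out library 2 below all of them. The summed markers of Paneth cells were 3214 to 5367 CPM in the knock-out and 1989 to 15586 CPM in the wild type at this time, and their part in the Wnt3 values was not tested. Goblet cell markers summed to 2191 to 14253 CPM in the knock-out and 1533 to 6500.02 CPM in the wild type, with positive fold changes for all 7. Enteroendocrine markers had positive fold changes for all 8, at sums of 222 to 573 CPM in the knock-out and 156 to 438 CPM in the wild type. Enterocyte markers were negative for 7 of 8, against 49% of all genes tested, with a median log2 fold change of -0.40. An unadjusted p under 0.05 was found for 1 of the 8, against 3.99% of all genes. Their sums were 648 to 3580 CPM in the knock-out and 735 to 5746 CPM in the wild type. The part of these marker values in the members' fold changes was not tested. Apc and Dvl3 no longer separated, with 95% intervals of -0.34 to 0.21 for Apc and -0.59 to 0.56 for Dvl3 on the log2 scale. Apc had 132, 133, 155, 169 and 134 CPM in the knock-out and 149, 138, 166, 155 and 150.3 CPM in the wild type, and Dvl3 had 11.2, 15.2, 7.28, 5.90 and 8.56 CPM in the knock-out and 12.2, 10.3, 7.77, 8.86 and 9.39 CPM in the wild type. Ctnnb1 had 376, 511, 449.5, 442 and 476 CPM in the knock-out and 525, 522, 416, 512 and 469.7 CPM in the wild type, with an interval of -0.45 to 0.21. The groups overlapped, with knock-out library 1 the lowest of the 10.

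The other core members at 14 days had overlapping groups too. Gsk3b had 75.8, 84.8, 87.5, 99.9 and 99.6 CPM in the knock-out and 82.5, 98.7, 103, 99.3 and 94.01 CPM in the wild type, with a 95% interval of -0.36 to 0.18 on the log2 scale. Csnk1a1 had 335, 353, 364, 442 and 375 CPM in the knock-out and 330.4, 428, 438, 339.5 and 373 CPM in the wild type, with an interval of -0.36 to 0.30. Of the nuclear factors, Tcf7 had 5.33, 10.02, 10.1, 13.8 and 7.42 CPM in the knock-out and 7.21, 10.5, 9.11, 13.7 and 7.83 CPM in the wild type, with an interval of -0.65 to 0.55. Both genotypes reached nearly the same maximum for Tcf7. Tcf7l2 had 76.6, 75.8, 84.7, 108 and 77.6 CPM in the knock-out and 72.7, 86.3, 112, 78.4 and 97.1 CPM in the wild type, with an interval of -0.41 to 0.25. Lef1 had 2.41, 0.771, 1.66, 1.10 and 1.28 CPM in the knock-out and 0.545, 1.53, 0.384, 1.57 and 1.57 CPM in the wild type, from at most 28 counts. At the cell surface, Lgr4 had 99.8, 133, 121, 149 and 111 CPM in the knock-out and 103, 150.3, 109, 116 and 154 CPM in the wild type, with an interval of -0.39 to 0.30. The intervals were -0.72 to 0.61 for Lrp5, -0.36 to 0.32 for Wls and -1.61 to 1.13 for Porcn.

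Most fold changes at 14 days were negative. Negative log2 fold changes were found for 34 of 42 members (81.0%), against 49% of all genes tested, with a median of -0.09, against 0.01 over all genes. All 10 members of the destruction complex and tankyrase group, from -0.34 to -0.0044, all 3 Dishevelled genes, both LRP genes and 7 of 9 Frizzled genes were among them. The number of negative members was 28 without knock-out library 1, the library lowest for 17 members, and at most 35 without any other single library. No tested member had groups that did not overlap, against 0.529% of all genes. Pygo1, the rarer Pygopus, was too low to test, with 4, 7, 2, 2 and 4 counts in knock-out and 1, 0, 0, 2 and 1 counts in wild-type libraries. The 95% interval lay within a 2-fold change for 30 of 42 members and for all 27 with an average log2 CPM of at least 3. Log2 fold changes of the members not named at this time lay between -0.16 (Gsk3a) and 0.09 (Tle1), apart from the low genes Fzd2 (-0.22), Fzd3 (-0.34), Fzd9 (0.36), Wnt5a (-0.29) and Wnt9b (0.37). Those not tested were Tcf7l1, Pygo1, Fzd10, Lgr6, Wnt6, Wnt11 and Ror1.

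Averaged over both times in 1 fit of all 18 libraries, 0 of 43 members were called by edgeR, DESeq2 or limma voom, against 1 of 15458 genes (0.00647%) by edgeR. At an unadjusted p under 0.05 the count was 1 of 43, Apc, against 5.81% of all genes. The averaged value of Apc was -0.24 (SE 0.11, 95% interval -0.46 to -0.01), and -0.15 without wild-type library 1 at 2 days. After it in order of p came Dvl2 (-0.61 ± 0.31, SE), Ctnnb1 (-0.20 ± 0.10), Tnks2 (-0.22 ± 0.12) and Lgr6 (2.12 ± 1.12, at most 26 counts in a library). Without wild-type library 1 at 2 days the values were -0.16 for Dvl2 and -0.10 for Tnks2. Without knock-out library 3 at 2 days, the only library of that time with Lgr6 counts, Lgr6 was at 0.39. Negative values were found for 33 of 43 members (76.7%), against 49.1% of all genes, with a median of -0.07. This average shares its libraries with the comparisons at each time and adds no others.

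Whether the genotype effect differed between the times was tested as the effect at 14 days minus that at 2 days. No member of 43 was called by edgeR, DESeq2 or limma voom, against 0 of 15458 genes (0%) by edgeR, and 1 was under an unadjusted p of 0.05, Fzd4, against 5.96% of all genes. Fzd4 had a log2 fold change of -1.33 at 14 days and 0.93 at 2 days, a difference of -2.28 (SE 0.87, 95% interval -4.10 to -0.47; adjusted p = 0.764 by edgeR). It was -1.66 without wild-type library 3 of 14 days. Knock-out libraries ranged from 3 to 18 counts at 14 days and from 38 to 130 at 2 days. For Fzd5 the difference was -0.62 (SE 0.31, 95% interval -1.26 to 0.02), for Axin1 -0.46 ± 0.28, for Pygo2 -0.49 ± 0.30 and for Apc 0.30 ± 0.21 (SE). Without wild-type library 1 at 2 days it was -0.28 for Axin1 and 0.14 for Apc. The Fzd5 difference was -0.36 without wild-type library 2 of 14 days. Differences between times were less well bounded, with 20 of 43 intervals within a 2-fold change.

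Other genes of the pathway, taken from lists that also hold the remaining Wnt ligands, secreted modulators, further transducers, targets, the planar polarity branch and the cadherin partners of beta-catenin, gave the same count. None of the 77 such genes tested at 2 days, the 76 at 14 days, or the 82 tested for the average or the difference was called by edgeR. Among 21 target and feedback genes tested at 2 days (Tcf7 and Lef1 included), 1 had an unadjusted p under 0.05 with a positive and 1 with a negative fold change, against 4.91% of all genes under that p. These were Nkd2, an inhibitor of Wnt signalling, with a mean of 7.09 CPM in the knock-out and 1.89 CPM in the wild type (log2 fold change 1.92 ± 0.77, SE), and Prox1, with 15.3 CPM in the knock-out and 27.4 CPM in the wild type (-0.83 ± 0.36). Lgr5, the R-spondin receptor that marks these stem cells, had means of 169 CPM in the knock-out and 222 CPM in the wild type (-0.40 ± 0.23). Of 23 planar polarity genes 2 were under it, against the same 4.91%, both with negative fold changes: Intu (-0.80 ± 0.31) and Rock1, which encodes a kinase that acts on the cytoskeleton (-0.67 ± 0.27). Of 25 further transducers there was 1, the casein kinase Csnk1g3 (-0.51 ± 0.21).

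At 14 days 1 of 19 tested target and feedback genes had an unadjusted p under 0.05, against 3.99% of all genes. This was Myc, which averaged 45.1 CPM in the knock-out and 64.7 CPM in the wild type (log2 fold change -0.52 ± 0.22, SE). The other target genes named by their p were Sp5 (-0.39 ± 0.29) and Smoc2 (-0.22 ± 0.18). None of 23 planar polarity genes and none of 26 further transducers was under that p. Nkd2 averaged 0.349 CPM in the knock-out and 1.29 CPM in the wild type at this time, near the limit of detection. It had at most 6 counts in a knock-out and 40 in a wild-type library, against at most 554 and 69 at 2 days. From these counts the genotype effect of Nkd2 differed by -3.91 ± 1.14 (SE) between 14 and 2 days, with an adjusted p of 0.730 by edgeR. The R-spondins were at or near 0, with no count of Rspo1, Rspo2 or Rspo3 at 2 days in either genotype. Notum, an enzyme that inactivates Wnt ligands, had no count at 2 days and at most 3 counts in knock-out and 4 in wild-type libraries at 14 days.

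Libraries at 14 days were also set against those at 2 days, averaged over both genotypes. At 14 days Bcl9l, Lrp5, Dvl3 and both Gsk3 genes were at least 4-fold lower, while Dvl1, Pygo2 and Wls were higher. Each time was a separate table, so time, sequencing run and cohort of mice cannot be told apart, and the CPM of each time were scaled within its own table, while the test used 1 fit of all libraries. For well-measured members the 14 to 2 day ratio of the table CPM was larger than the fitted one by a median of 0.44 on the log2 scale. This turned the direction of 6 members, none of them called: Ctnnb1, Axin1, Tcf7l2, Ryk, Fzd2 and Fzd3. Of 43 members 26 were called by edgeR (60.5%), against 64.5% of all genes, so the count of calls was near the background. Lower calls made up 20 of 43 (46.5%), against 30.6% of all genes, and higher calls 6 of 43 (14.0%), against 33.9%. The median log2 fold change was -0.53 over the members and 0.11 over all genes. At an unadjusted p under 0.05 there were 28 of 43, against 67.5% of all genes, and 29 of 43 had a negative fold change, against 46.7%. At least 4-fold lower were 7 of 43 (16.3%), against 4.79% of all genes: Bcl9l, Lrp5, Dvl3, Bcl9, Gsk3a, Gsk3b and Tnks.

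Bcl9l, which links beta-catenin to Pygopus, fell to 4.30, 5.24, 5.30, 6.32 and 4.14 CPM in the knock-out and 3.51, 4.64, 9.31, 4.37 and 5.26 CPM in the wild type at 14 days, against 65.8, 73.9, 48.5 and 84.8 CPM in the knock-out and 48.5, 104, 64.9 and 55.5 CPM in the wild type at 2 days. The times did not overlap, and the log2 fold change was -4.14 (SE 0.20, 95% interval -4.56 to -3.73). Lrp5 fell to 6.36, 12.03, 3.72, 7.92 and 13.3 CPM in the knock-out and 9.27, 9.04, 7.77, 7.57 and 11.02 CPM in the wild type at 14 days, against 87.4, 105, 99.96 and 139 CPM in the knock-out and 69.4, 114, 102 and 114 CPM in the wild type at 2 days (-4.01 ± 0.19 log2, SE). Again no 14 day library reached the lowest 2 day library. Bcl9, the relative of Bcl9l, fell to 13.3, 16.7, 14.4, 14.1 and 12.6 CPM in the knock-out and 10.2, 14.6, 15.2, 12.2 and 15.5 CPM in the wild type at 14 days, against 62.3, 100.1, 66.3 and 84.1 CPM in the knock-out and 109, 74.9, 57.4 and 65.3 CPM in the wild type at 2 days (-2.92 ± 0.14 log2, SE). Gsk3a, the second Gsk3 kinase, fell to 8.59, 11.6, 9.02, 9.52 and 5.71 CPM in the knock-out and 9.03, 7.51, 15.3, 10.1 and 8.08 CPM in the wild type at 14 days, against 48.4, 34.6, 53.7 and 41.3 CPM in the knock-out and 28.7, 35.4, 46.8 and 44.7 CPM in the wild type at 2 days (-2.58 ± 0.17 log2, SE). For Dvl3 the log2 fold change was -3.14 ± 0.17, for Gsk3b -2.35 ± 0.11 and for Tnks -2.09 ± 0.14. The adjusted p by edgeR was at most 3.42e-11 in these 7. Of the Gsk3a exon bases, 820 are shared with 9130221H12Rik on the opposite strand. Bcl9l shares 772 with genes on the opposite strand, among them Cxcr5, and Tnks shares 635 with Gm9939 on the opposite strand.

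By role, 7 of 10 members of the destruction complex and tankyrase group were called lower, against 30.6% of all genes. In that group 1 member, Csnk1a1 (0.32 ± 0.11 log2, SE), was called higher, against 33.9% of all genes. Of the Frizzled genes Fzd4, Fzd5, Fzd6 and Fzd7 were lower, 4 of 9 tested, against the same 30.6%. Their log2 fold changes were -1.41 for Fzd4, -1.12 for Fzd5, -1.30 for Fzd6 and -1.70 for Fzd7. The casein kinases Csnk1d (-1.06 ± 0.12) and Csnk1e (-0.53 ± 0.18) and Tnks2 (-0.95 ± 0.12) were called lower, as was Dvl2 (-1.10 ± 0.31). Lrp6 was lower too (-1.74 ± 0.10), as were Lgr4 (-0.99 ± 0.11), Tcf7 (-1.66 ± 0.19), Tle3 (-1.58 ± 0.16) and Apc (-0.93 ± 0.11). Dvl1 rose to 77.3, 113, 59.4, 82.05 and 140.5 CPM in the knock-out and 84.95, 116, 66.5, 128 and 119 CPM in the wild type at 14 days, against 21.4, 31.1, 18.8 and 20.3 CPM in the knock-out and 23.5, 28.9, 21.7 and 23.2 CPM in the wild type at 2 days. Its log2 fold change was 1.62 (SE 0.17, 95% interval 1.27 to 1.97), in the direction opposite to that of Dvl3. Pygo2 rose to 39.8, 55.3, 44.6, 40.6 and 43.1 CPM in the knock-out and 36.5, 58.7, 34.6, 50.6 and 58.5 CPM in the wild type at 14 days (0.88 ± 0.15 log2, SE). Wls rose to 68.6, 64.4, 60.1, 49.7 and 65.6 CPM in the knock-out and 79.7, 65.7, 47.8, 53.9 and 65.4 CPM in the wild type (0.71 ± 0.14). Ctnnbip1, an inhibitor that keeps beta-catenin off TCF factors, was also called higher (0.44 ± 0.18), and neither it nor Csnk1a1 was called when genes of low count were kept. Lgr6 was the sixth, from at most 5 counts at 2 days. Ctnnb1 was not called, at -0.23 (SE 0.10, 95% interval -0.44 to -0.01; adjusted p = 0.0590 by edgeR), and its table CPM ran the other way. They averaged 451 ± 49.96 in the knock-out and 489 ± 46.3 in the wild type at 14 days (SD, n = 5 each), against the lower 2 day means given above. Not called either were Tcf7l2 (-0.31 to 0.25), Axin1 (-0.43 to 0.16), Ryk (-0.51 to 0.12) and Tle1 (-0.13 to 0.39), given by their intervals, and the 3 ligands tested.

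**Figure D5:**
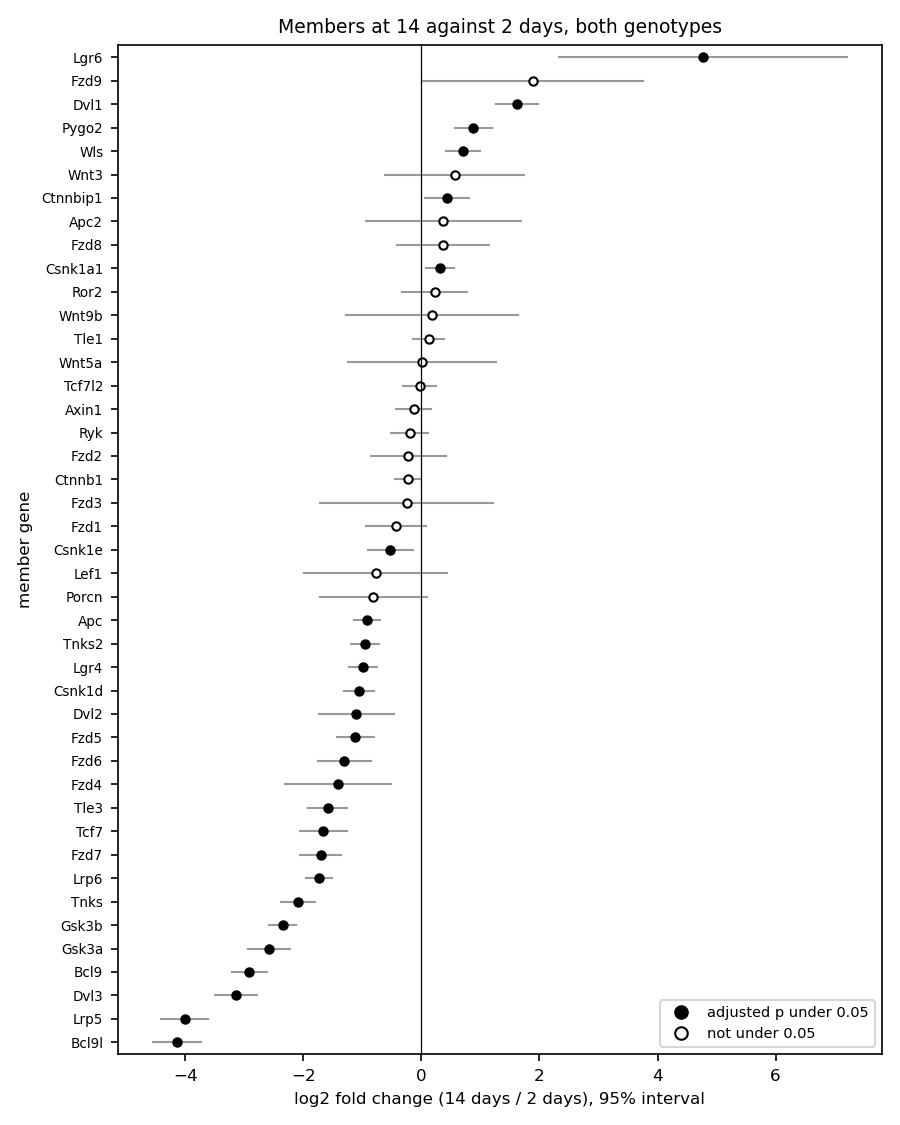
Log2 fold change of 14 over 2 days for the 43 members tested, averaged over both genotypes, with bars for the 95% interval and filled points for an adjusted p under 0.05 by edgeR. Bcl9l, Lrp5, Dvl3 and Bcl9 lie lowest, Dvl1 is highest among the well-measured genes, and Lgr6 and Fzd9 above it rest on few counts.

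Other lists moved with the times as well. Of 21 tested Wnt target and feedback genes 17 were called lower at 14 days and 0 higher, against 30.6% of all genes lower and 33.9% higher, with a median of -1.66 on the log2 scale. Of the 21, 6 were at least 4-fold lower, against 4.79% of all genes. Of 26 further transducers 17 were lower and 5 higher, and of 24 planar polarity genes 12 were lower and 3 higher, against the same 30.6% lower and 33.9% higher. The cell type markers differed in the same comparison: 8 of 10 stem cell markers were called lower, while 6 of 7 goblet, 5 of 8 Paneth and 5 of 7 epithelial markers were called higher. Of the 10 stem cell markers, called or not, 6 are also on the list of targets. The stem cell sums, in CPM scaled within each table, were 2289 to 3502 over the 14 day libraries and 4596 to 5920 over the 2 day libraries. Most of this difference was Olfm4, with knock-out and wild-type means of 847 and 825 CPM at 14 days, against 2432 and 2953 CPM at 2 days. Smoc2 went the other way, at 309 and 360 CPM against 211 and 210 CPM. The part of these shifts in the members' values was not tested. Markers of mesenchyme, which is known to make R-spondins, stayed low. At 14 days 12 of 13 were detected in knock-out and 13 of 13 in wild-type libraries, at sums of at most 26.96 CPM in the knock-out and 18.2 CPM in the wild type. At 2 days 7 of 13 were detected in each genotype, at sums of at most 5.43 CPM in the knock-out and 3.45 CPM in the wild type. In both genotypes at 2 days Dcn, Lum, Col6a1, Col6a2 and Foxl1 were among those at 0.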

How the data were processed

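The 2 deposited tables hold whole-number counts of reads per Ensembl gene and library, 1 table for each time, which the authors made before deposit. Per the submitters' processing notes, reads were converted with bcl2fastq 2.20.0.422 and aligned with STAR 2.4.2a to GRCm38. The counting tool and its strand setting are not stated there. From these counts, fold changes were fitted with edgeR 4.0.16 (R 4.3.3; quasi-likelihood test, TMM scaling, filterByExpr with a minimum count of 10), within each table for the genotypes and over all 18 libraries for the average, the difference and the times. P-values were adjusted by Benjamini-Hochberg over all genes tested and called under 0.05. Single values used an exact permutation test on log2(CPM + 0.5), two-sided. CPM are counts over TMM-scaled totals, set within each table, and were divided by kb of merged exons from GENCODE M21. DESeq2 1.42.0, limma 3.58.1 (voom), other filters and scalings, and leaving out each library were the alternatives. Leaving out wild-type library 1 at 2 days and knock-out library 5 at 14 days together was added after seeing the data, as was a fit with the first letter or first 2 digits of the column codes, whose meaning is not given in the sources used here, as a block. The fit was tested on simulated data.

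Libraries were numbered by their place in the tables, since their columns show none of the labels' replicate numbers, and the abbreviation Dmin in them was read as the knock-out. Of the 43432 identifiers 42462 had a symbol, and those without held at most 0.218% of a library's counts. The members and lists were chosen with earlier results of these data known. Named genes were the 10 members of smallest p at each time, the 5 of smallest p in the average and in the difference, 17 members chosen by role, up to 3 of each other list per time and the 5 largest changes per direction between the times among genes with an average log2 CPM of at least 3. Depth limits the low members: an interval or a limit from 3 counts covers counting error only.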

Additional observations from a re-analysis of the deposited data

Results flagged for a closer look

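In 7 of 115 groups of 4 or 5 libraries 1 library stood apart from the rest of its group. Chance alone would flag about 1 in 20 groups if the values had a normal spread. Sparse counts need not have one: a group with counts in 1 library alone, such as knock-out Lgr6 at 2 days, is flagged whatever its level. At 2 days Axin1 was at 59.9 CPM in knock-out library 4 (41.3 to 43.9 CPM in the other 3), and Lef1 was at 5.57 CPM in knock-out library 2 (0.879 to 1.11 CPM in the other 3). Lgr6 was at 0.276 CPM in knock-out library 3 and at 0 in the other 3. Csnk1a1 was at 314 CPM in wild-type library 1 at 2 days (213 to 220.2 CPM in the other 3). At 14 days Lgr6 was at 3.71 CPM in knock-out library 5 (0.166 to 0.674 CPM in the other 4), and Tcf7l2 was at 108 CPM in knock-out library 4 (75.8 to 84.7 CPM in the other 4). Fzd4 was at 5.66 CPM in wild-type library 3 at 14 days (0.897 to 1.99 CPM in the other 4).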

How the results depend on the processing

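No member was called between the genotypes in any of the 8 other settings or on leaving out any library, at either time, in the average or in the difference. The smallest adjusted p over all settings was 0.543 at 2 days (Apc, 1 fit of all libraries), 0.193 at 14 days (Fzd5, without wild-type library 3), 0.455 in the average (Fzd5, without the same library) and 0.479 in the difference (Fzd4, DESeq2). Over all genes the calls at 2 days, at 14 days, in the average and in the difference were 7, 2, 40 and 98 with no filter on low counts and 13, 1, 7 and 13 with DESeq2, against 0, 0, 1 and 0. With no filter 1 gene of the pathway lists, Nkd2, was called in the difference (-3.96, adjusted p = 0.0147 by edgeR). Nkd2 had at most 6 counts in a knock-out library at 14 days. The number of members with a negative fold change ran from 20 to 27 at 2 days and from 28 to 38 at 14 days over the other settings. Members called between the times ran from 24 to 29, and those called lower from 19 to 22. Of 68 single-gene results 8 changed sign in a setting other than a left-out library: Wnt3 at 2 days was 0.91 with limma voom, against -0.40, and 7 turned at 2 days with the column-code block. These were Dvl2 0.22, Tcf7 0.062, Axin1 -0.052, Tcf7l2 0.12, Lrp5 -0.085, Lgr4 0.0017 and Wls -0.066. That block draws its 2 day genotype estimate from codes 51 and 64, since code 45, wild-type libraries 1 and 2, has no knock-out library. The cause of the sign changes was not tested. Between the times Ctnnbip1 (0.45, adjusted p = 0.0912) and Csnk1a1 (0.32, adjusted p = 0.0589) were not called by edgeR with no filter on low counts.

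Leaving out 1 library changed the sign of 19 single-gene fold changes. The lowest to highest values at 2 days were Axin1 -0.073 to 0.20, Dvl2 -1.06 to 0.12, Fzd5 -0.097 to 0.18, Fzd8 -0.057 to 0.53, Gsk3b -0.15 to 0.044, Lef1 -0.27 to 1.33, Lgr4 -0.13 to 0.029, Lrp5 -0.037 to 0.19, Lrp6 -0.10 to 0.021, Tcf7l2 -0.12 to 0.20, Tle3 -0.025 to 0.31 and Wls -0.14 to 0.18. At 14 days they were Csnk1a1 -0.10 to 0.023, Dvl3 -0.24 to 0.12, Lgr4 -0.13 to 0.034, Lrp5 -0.27 to 0.13, Tcf7 -0.23 to 0.11, Tcf7l2 -0.18 to 0.016 and Wls -0.10 to 0.082. No paired analysis was possible because the columns carry no replicate number from the labels. Each column has a code of its own, of unstated meaning, so only the start of a code, shared by several libraries, could serve as a block. Depth and the spread between libraries limit Wnt ligands, Lgr6, Lef1 and the low Frizzled genes, for which a 2-fold difference could not be seen or excluded.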
